A study of Homo sapiens with 12 samples.

Results

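The 10 genes described here code for tubulins and for proteins that bind tubulin or microtubules: TPPP, TPPP3, STMN1, TUBA1A, TUBB2A, TUBB2B, TUBB3, TUBB6, TUBG1 and MAP1B. They were chosen by symbol, with TPPP selected on its response to FoxO in earlier results of these data. For each gene the probe set annotated to that symbol alone with the highest mean level over the 12 arrays was used, out of 17 such probe sets. TUBA1A and TUBG1 had 1 each, so no other probe set is a check on them. They are 10 of the 19775 genes of the array, and 9 of them were among the 14283 genes tested.

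The arrays are Affymetrix U133 Plus 2.0, 1 for each combination of cell line, construct and treatment. RCC4 and UMRC2 are established human kidney cancer lines, known to lack functional VHL. Both were made to express stably FoxO3(TA)ERT2, FoxO1(TA)ERT2 or, as empty vector (EV), what is described as the ERT2 moiety alone. In the TA forms the AKT phosphorylation sites are alanine, so AKT cannot keep the protein out of the nucleus, and the ERT2 tag holds it in the cytoplasm until 4-hydroxytamoxifen (4OHT) is given. Cells received 100 nM 4OHT or the vehicle ethanol for 12 h, and all 12 cultures, controls included, grew in DMEM with 10% FBS under puromycin. The labels do not say whether an engineered line is a pool or a clone. No combination was repeated, so a construct has its 2 cell lines as replicates.

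Microtubules are built from dimers of an alpha- and a beta-tubulin, and gamma-tubulin starts their growth at centrosomes. Cells carry several alpha and beta isotypes from separate genes, and some, such as beta-III-tubulin (TUBB3), are best known from neurons but are also made by many cancer cells. TPPP, abundant in oligodendrocytes, promotes the assembly and bundling of microtubules, TPPP3 is a smaller relative, MAP1B binds along microtubules, and stathmin (STMN1) works the other way by holding free dimers. FoxO proteins bind DNA at forkhead sites, of which GTAAACA is a well-known form. AAACAA is a shorter motif of the FoxO type that shares the letters AAACA with GTAAACA but is not contained in it.

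The promoters of TPPP and of TUBA1A and TUBG1, the members whose FoxO3 response differed from that of EV past the threshold, are shown so that the forkhead letters can be looked for directly. They are the 250 bases before the start site, from RefSeq on GRCh38.p14, read 5′ to 3′ on the gene's strand. Capitals mark a match to AAACAA on either strand.
TPPP (chr5:693353-693602, minus strand): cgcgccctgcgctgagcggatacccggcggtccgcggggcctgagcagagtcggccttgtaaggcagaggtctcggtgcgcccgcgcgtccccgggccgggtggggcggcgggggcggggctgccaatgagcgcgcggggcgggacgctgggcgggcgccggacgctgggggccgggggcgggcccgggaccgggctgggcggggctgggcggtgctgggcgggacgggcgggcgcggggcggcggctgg
TUBA1A (chr12:49189081-49189330, minus strand): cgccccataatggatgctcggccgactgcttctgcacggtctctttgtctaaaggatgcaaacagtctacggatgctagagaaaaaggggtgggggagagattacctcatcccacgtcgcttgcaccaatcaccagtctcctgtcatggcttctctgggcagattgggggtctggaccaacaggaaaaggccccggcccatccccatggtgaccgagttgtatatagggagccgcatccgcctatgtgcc
TUBG1 (chr17:42609433-42609682, plus strand): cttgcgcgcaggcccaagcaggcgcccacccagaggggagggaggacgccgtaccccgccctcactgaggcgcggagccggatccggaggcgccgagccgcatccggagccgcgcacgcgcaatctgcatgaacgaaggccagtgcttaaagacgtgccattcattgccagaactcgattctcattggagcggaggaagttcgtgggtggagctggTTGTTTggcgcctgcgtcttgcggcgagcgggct

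A promoter was at hand for 9 of the 10 genes, TPPP3 being the other. In windows of 300 bases, which add 50 bases after the start site, GTAAACA on either strand was found in none of the 9, and it occurs in 3.42% of 35116 human promoters of that length. AAACAA, which overlaps GTAAACA where the 2 share letters, was found in TUBG1 alone, on the minus strand with its first base at -34 from the start site. It occurs in 17.9% of promoters. The TPPP window was the richest of the 9 in G and C, at 83%, and that of TUBA1A held 55.7%.

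Levels are given as log2 of the intensity after quantile normalisation, with a floor at log2 4.17 and the median probe set of an array at 6.62. As deposited the arrays differed in overall level. Their medians ran from 71.1 to 138.7, and RCC4 FoxO3 cells had a median of 74.6 with 4OHT and 129.6 with vehicle. Of 7 kidney epithelial markers, PAX8, KRT8, KRT18 and CDH16 reached the array median in all 12 arrays, PAX2 in 11, EPCAM in 6 and CDH1 in 0. Of 6 fibroblast markers, COL1A1 and DCN reached it in all 12, COL1A2 in 8, and COL3A1, LUM and PDGFRA in 0. Of 6 neuronal markers, SNAP25 and NEFL reached it in all 12, SYT1 in 11, GAP43 in 3, SYP in 1 and RBFOX3 in 0. The ESR1 probe set that detects the ERT2 part read 12.91 in RCC4 FoxO3 cells, 9.17 in RCC4 FoxO1 cells and 4.64 in RCC4 EV cells under vehicle. In UMRC2 it read 13.47 with FoxO3, 12.51 with FoxO1 and 5.47 with EV. Both EV readings were below the array median, so this probe set did not show the ERT2 part in EV cells. The reading was higher in the FoxO3 line than in the FoxO1 line in both cell lines, most of all in RCC4.

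TPPP had the largest FoxO3 responses of the 10 genes in both lines, as the gene selected on its response, while in RCC4 FoxO1 cells the response of TUBA1A was larger. In RCC4 it stood at log2 12.88 with 4OHT and 6.81 with vehicle in FoxO3 cells, at 7.26 and 6.22 in FoxO1 cells, and at 4.72 and 6.21 in EV cells. In UMRC2 it stood at 11.28 with 4OHT and 5.45 with vehicle in FoxO3 cells, at 7.17 and 4.87 in FoxO1 cells, and at 4.17, the floor, and 5.44 in EV cells. The 2 FoxO3 arrays with 4OHT were far above the other 10, and the 2 FoxO1 arrays with 4OHT came next, with a gap between them smaller than the spread of the vehicle arrays of a line (SD 0.35 in RCC4 and 0.33 in UMRC2, n = 3 constructs each). In deposited intensity, RCC4 FoxO3 cells had 6274 with 4OHT and 148 with vehicle, and UMRC2 FoxO3 cells had 2141 with 4OHT and 38.2 with vehicle.

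The response, taken as 4OHT minus vehicle in log2, was 6.07 for TPPP in RCC4 FoxO3 cells and 5.83 in UMRC2 FoxO3 cells. With FoxO1 it was 1.05 in RCC4 and 2.30 in UMRC2, and with EV it was -1.49 in RCC4 and -1.27 in UMRC2. The EV values lower the baseline that the FoxO responses are set against. They rest on dim signals, a deposited intensity of 36 with 4OHT and 99.6 with vehicle in RCC4, and of 9.7 with 4OHT and 37.6 with vehicle in UMRC2. Against EV, the FoxO3 response of TPPP was 7.33 ± 0.55 and the FoxO1 response 3.05 ± 0.55 (SE from limma, n = 2 cell lines each), and FoxO3 exceeded FoxO1 by 4.27 ± 0.55. Since TPPP was selected on this response, these values are a description with no test, and in RCC4 the value of 2.53 for FoxO1 beyond EV is made of a FoxO1 response of 1.05 and an EV response of -1.49.

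The other TPPP probe sets differed in how much of this they showed. The second brightest probe set (mean 6.75, against 6.87 for the one used), gave FoxO3 responses of 5.70 in RCC4 and 3.30 in UMRC2. Its FoxO1 responses were 0.65 in RCC4 and 0.23 in UMRC2. The dimmest gave 4.13 in RCC4 and 2.40 in UMRC2 with FoxO3, with 5 arrays at the floor. With FoxO1 it gave -0.50 in RCC4 and 1.33 in UMRC2. The third brightest gave 0.74 in RCC4 and 0.68 in UMRC2 with FoxO3, and 0.42 in RCC4 and 0.54 in UMRC2 with FoxO1. All 4 were thus higher with 4OHT in both FoxO3 lines, but the size ran over a wide range. With FoxO1 the sign in RCC4 turned in the dimmest. The EV response in RCC4 was -0.12 by the second brightest and 0.26 by the third. In UMRC2 it was -1.01 by the second brightest, -0.44 by the third and -1.74 by the dimmest.

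The 5 genes whose 6 responses lay nearest to those of TPPP, by mean absolute difference in log2 over the 6 pairs, were OLFML2B (1.03), RAI2 (1.04), SLC22A16 (1.06), ANKRD55 (1.12) and SLC40A1 (1.15). SLC40A1 is the cellular iron exporter and SLC22A16 a carnitine transporter. SLC22A16 came closest in RCC4 FoxO3 cells, with a response of 6.11, and OLFML2B in UMRC2 FoxO3 cells, with 5.75. TPPP3, the relative of TPPP, was at the floor in all 12 arrays and was not tested.

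TUBA1A, an alpha-tubulin isotype, was the member other than TPPP with the largest response, and its responses were above 0 with both FoxO proteins in both lines. In RCC4 it stood at log2 14.61 with 4OHT and 11.52 with vehicle in FoxO3 cells, at 12.67 and 10.94 in FoxO1 cells, and at 10.85 and 11.03 in EV cells. In UMRC2 it stood at 14.62 with 4OHT and 13.65 with vehicle in FoxO3 cells, at 14.14 and 13.53 in FoxO1 cells, and at 13.44 and 13.33 in EV cells. All 4 FoxO arrays with 4OHT lay above every other array of their line. The FoxO3 arrays with 4OHT stood at nearly the same level in the 2 lines although the vehicle arrays were far apart, and both were close to the highest value of any probe set, 14.83.

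The responses of TUBA1A were 3.09 in RCC4 and 0.97 in UMRC2 with FoxO3, 1.73 in RCC4 and 0.62 in UMRC2 with FoxO1, and -0.18 in RCC4 and 0.10 in UMRC2 with EV. The FoxO3 response exceeded that of EV by 2.06 ± 0.46 (limma, adjusted p = 0.0215). For the mean of both FoxO proteins the excess was 1.64 ± 0.39, at the threshold (adjusted p = 0.0488). For FoxO1 alone it was 1.21 ± 0.46 and did not pass (adjusted p = 0.437), with 0.26 without the RCC4 EV pair and 2.16, past the threshold, without the UMRC2 EV pair (adjusted p = 0.0279). The call for the mean is fragile: with the probe set of each gene picked on the linear scale it missed the threshold (adjusted p = 0.0504), and without the RCC4 EV pair the excess was 0.69 (adjusted p = 0.195). The FoxO3 call held without any 1 pair, with an excess from 1.11 to 3.01, but was lost in 6 other settings, with adjusted p up to 0.243.

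**Figure D1:**
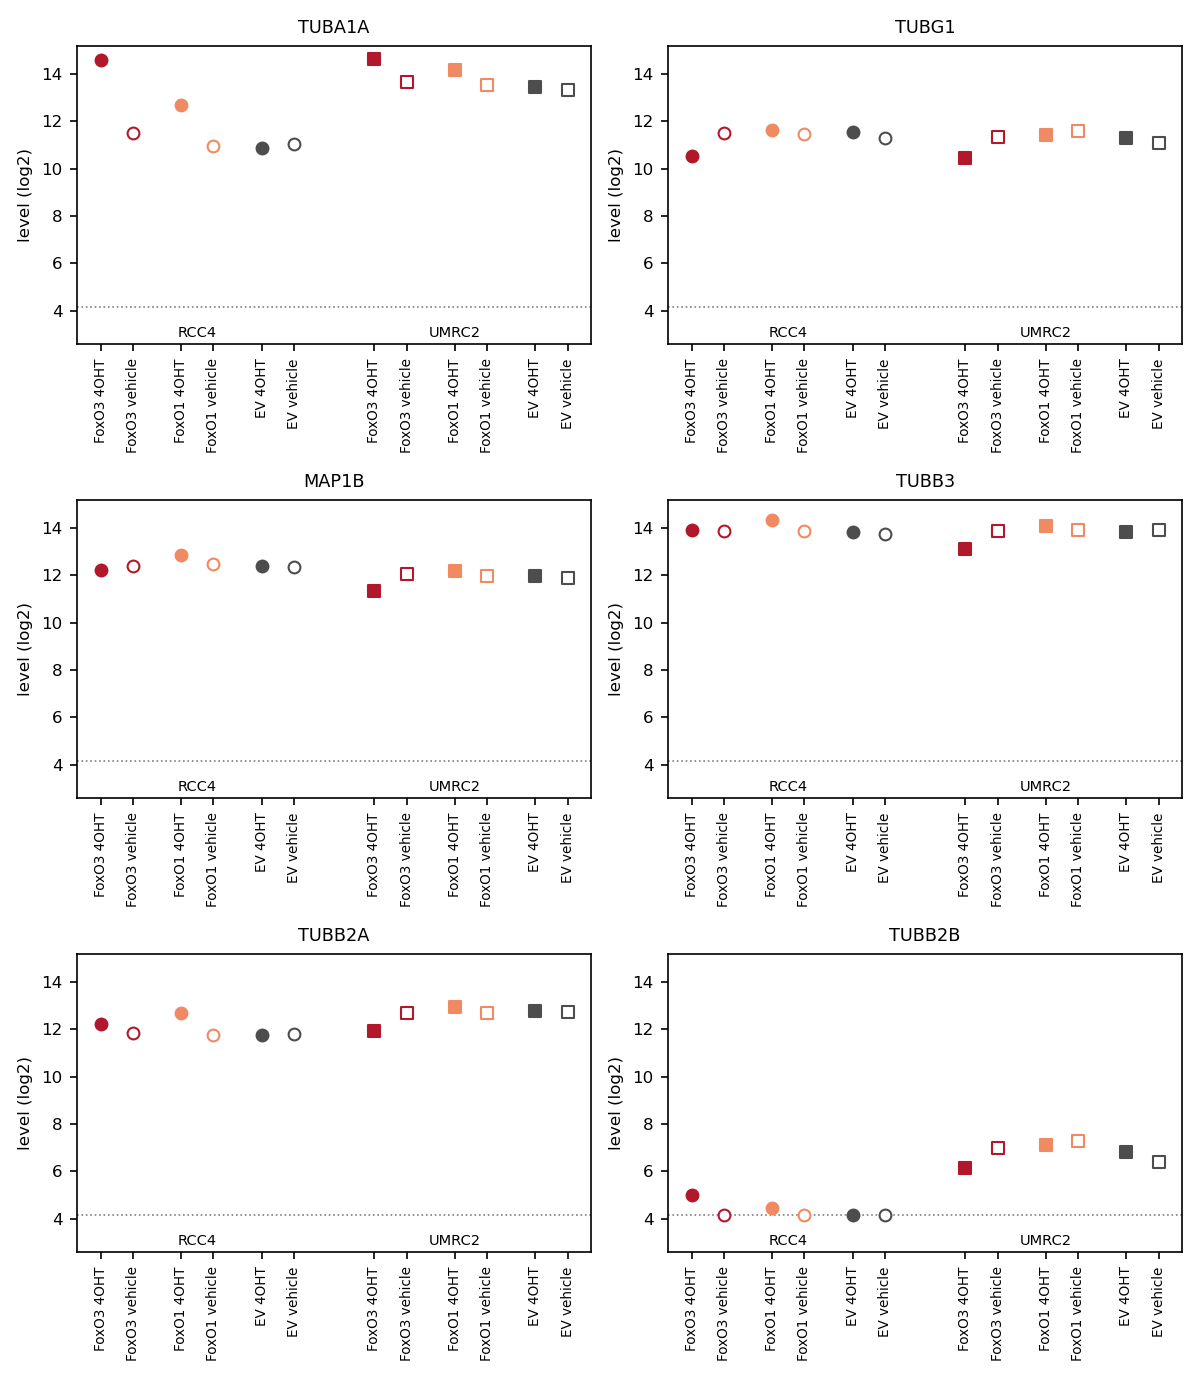
Level (y axis, log2 after quantile normalisation, dotted line at the floor) of 6 members in every array (x axis, filled points 4OHT, open points vehicle, circles RCC4, squares UMRC2, 1 array a point). TUBA1A is at 14.61 and 14.62 in the FoxO3 arrays with 4OHT, TUBG1 is lowest there, at 10.51 and 10.43, and TUBB2B is at or near the floor in RCC4.

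TUBG1, the gamma-tubulin that starts microtubules, was lower with FoxO3. In RCC4 it stood at 10.51 with 4OHT and 11.50 with vehicle in FoxO3 cells, at 11.65 and 11.47 in FoxO1 cells, and at 11.56 and 11.31 in EV cells. In UMRC2 it stood at 10.43 with 4OHT and 11.35 with vehicle in FoxO3 cells, at 11.44 and 11.58 in FoxO1 cells, and at 11.29 and 11.10 in EV cells. The FoxO3 arrays with 4OHT were the 2 lowest of the 12, and the other 10 lay between 11.10 and 11.65.

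The FoxO3 response of TUBG1 was -0.99 in RCC4 and -0.92 in UMRC2, against 0.25 in RCC4 and 0.19 in UMRC2 with EV. The difference from EV was -1.17 ± 0.17 (limma, adjusted p = 0.00499), and it kept its call without any 1 pair, from -1.30 to -1.04, but lost it in 4 other settings, with adjusted p up to 0.122. FoxO1 differed from EV by -0.20 ± 0.17 (adjusted p = 0.757). The direct comparison of FoxO3 with FoxO1 gave -0.97 ± 0.17 (adjusted p = 0.0252), with -1.17 in RCC4 and -0.77 in UMRC2. For the mean of both FoxO proteins against EV the value was -0.69 ± 0.15 (adjusted p = 0.0357). The comparison of the isoforms lost its call without the RCC4 FoxO1, RCC4 FoxO3 or UMRC2 FoxO1 pair (adjusted p = 0.257, 0.066 and 0.0734 in that order), and that of the mean lost its call without either EV or either FoxO1 pair.

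Markers of dividing cells moved with TUBG1. The mean response of 10 cell cycle genes, MKI67, TOP2A and CDC20 among them, was -1.31 in RCC4 FoxO3 cells and -1.30 in UMRC2 FoxO3 cells, with all 10 below 0 in both. It lay between -0.04 and 0.08 in the 4 other pairs. All 10 fell with FoxO3 against EV, from -2.39 for CDC20 to -0.62 for CCNB2 (limma, highest adjusted p = 0.0266). The part of cell division in the TUBG1 result was not tested.

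MAP1B, a microtubule-binding protein best known from growing neurites, differed between the isoforms. In RCC4 it stood at 12.20 with 4OHT and 12.37 with vehicle in FoxO3 cells, at 12.85 and 12.46 in FoxO1 cells, and at 12.41 and 12.35 in EV cells. In UMRC2 it stood at 11.32 with 4OHT and 12.07 with vehicle in FoxO3 cells, at 12.17 and 11.98 in FoxO1 cells, and at 11.96 and 11.87 in EV cells. With 4OHT the FoxO3 array was the lowest of its line in both lines, and the FoxO1 array the highest.

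The FoxO3 response of MAP1B was -0.17 in RCC4 and -0.76 in UMRC2, and its FoxO1 response 0.40 in RCC4 and 0.19 in UMRC2. The difference, -0.76 ± 0.17, sat at the threshold (limma, adjusted p = 0.0492). It was lost with the probe set picked on the linear scale (adjusted p = 0.0503) and without the RCC4 FoxO1, UMRC2 FoxO1 or UMRC2 FoxO3 pair (adjusted p = 0.252, 0.195 and 0.132 in that order), the last with a value of -0.51. Against EV, FoxO3 gave -0.54 ± 0.17 (adjusted p = 0.0793) and FoxO1 0.22 ± 0.17 (adjusted p = 0.732). The other MAP1B probe sets gave FoxO3 responses of -0.19 and -0.13 in RCC4 and of -0.78 and -1.07 in UMRC2. Their FoxO1 responses, in the same order, were 1.36 and 0.60 in RCC4 and 0.03 and 0.41 in UMRC2. With the second brightest probe set the isoform difference was -1.10 and missed the threshold (limma, adjusted p = 0.051). The higher ERT2 transcript in the FoxO3 lines goes with every comparison of the isoforms, and its part was not tested.

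The beta-tubulins did not pass the test in any comparison of the responses over all 6 pairs. TUBB3, beta-III-tubulin, lay between 13.11 and 14.32. Its FoxO3 response was 0.08 in RCC4 and -0.78 in UMRC2, and its FoxO1 response 0.44 in RCC4 and 0.18 in UMRC2. The FoxO3 minus FoxO1 difference of -0.66 ± 0.17 missed the threshold (limma, adjusted p = 0.0646). With its second probe set the difference was -1.11 and passed (adjusted p = 0.0265). By the probe set used, the difference was -0.98 without the RCC4 FoxO3 pair and -0.33 without the UMRC2 FoxO3 pair. The EV pairs do not enter it, and it stayed at -0.66 without either. Both TUBB3 probe sets are of the _x_at kind, which may match other transcripts, as is that of TUBB2B.

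TUBB2A, another beta isotype, had FoxO3 responses of 0.39 in RCC4 and -0.72 in UMRC2 and FoxO1 responses of 0.91 in RCC4 and 0.23 in UMRC2. FoxO3 minus FoxO1 was -0.74 ± 0.25 (adjusted p = 0.136). Leaving out 1 pair moved it between -1.14, without the RCC4 FoxO3 pair, and -0.34, without the UMRC2 FoxO3 pair. The EV pairs do not enter it, and it stayed at -0.74 without either. A probe set annotated to both TUBB2A and TUBB2B, and so not used, had FoxO3 responses of -1.15 in RCC4 and -0.96 in UMRC2. Its EV responses were -0.48 in RCC4 and 0.21 in UMRC2. The sign in RCC4 FoxO3 cells thus differed from that of the TUBB2A probe set used. TUBB6, a widely made beta isotype, had FoxO3 responses of 0.56 in RCC4 and -0.44 in UMRC2, and the difference from EV was 0.05 ± 0.21 (adjusted p = 0.902). TUBB2B, a close copy of TUBB2A, was at the floor in 4 of the 6 RCC4 arrays and read 5.01 at most there, so its RCC4 responses have little meaning. STMN1, which holds free tubulin dimers, stayed between 9.81 and 10.56 in all 12 arrays, and FoxO3 differed from EV by -0.23 ± 0.25 (adjusted p = 0.606).

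**Figure D2:**
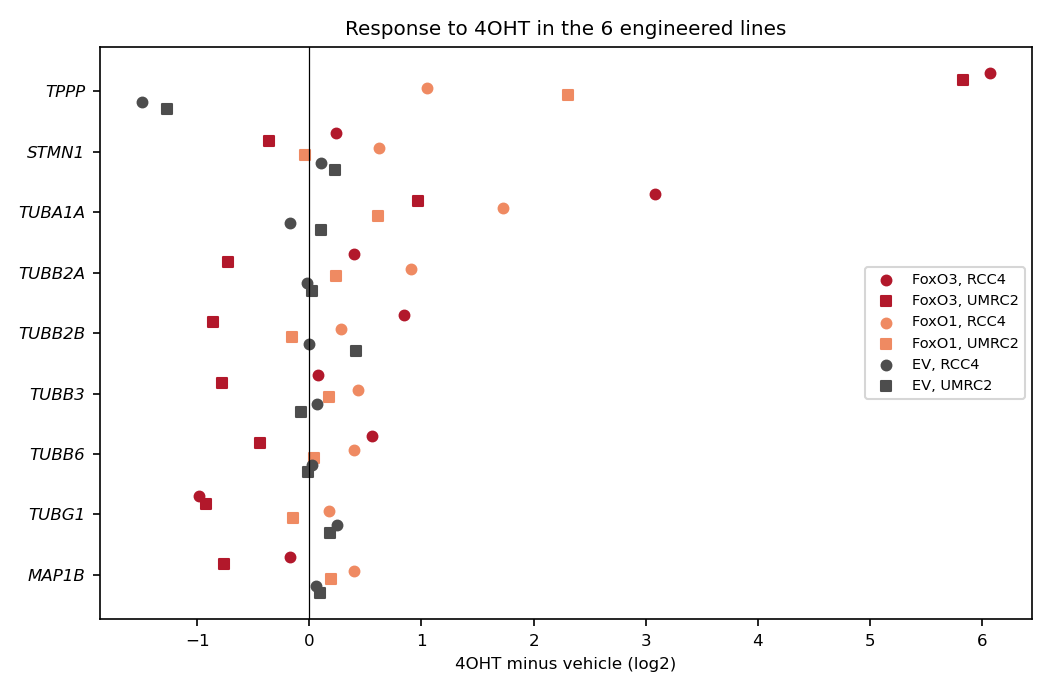
Response of 9 members (rows) in the 6 pairs of arrays, as 4OHT minus vehicle in log2 (x axis, colour for the construct, circles RCC4, squares UMRC2, 1 pair a point). TPPP reaches 6.07 and 5.83 with FoxO3, TUBA1A lies above 0 in all 4 FoxO pairs, and TUBG1 lies at -0.99 and -0.92 with FoxO3.

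Whether the members' FoxO3 responses had the same sign in the 2 lines depended on whether the arrays were scaled. Counting the 8 tested members other than TPPP by their response beyond that of EV in the same line, 6 were above 0 in RCC4 FoxO3 cells and 1, TUBA1A, in UMRC2 FoxO3 cells. With FoxO1, 7 were above 0 in RCC4 and 5 in UMRC2. TUBB2B could not fall below 0 in RCC4, since its vehicle arrays and both EV arrays there were at the floor. Without it, 6 of 7 were above 0 in RCC4 FoxO1 cells and 5 of 7 in RCC4 FoxO3 cells. In UMRC2, where TUBB2B was below 0 with both, it was 5 of 7 with FoxO1 and 1 of 7 with FoxO3. Of all genes tested, 44.9% were above 0 in RCC4 FoxO3 cells, 46.2% in UMRC2 FoxO3 cells, 48.3% in RCC4 FoxO1 cells and 47.2% in UMRC2 FoxO1 cells. The 6 in RCC4 FoxO3 cells include TUBB2B near the floor and TUBB3 at 0.01. The second TUBB3 probe set had a response of -0.36 in RCC4 FoxO3 cells and 0.04 in RCC4 EV cells. Scaled to a common median, 6 were again above 0 in RCC4 FoxO3 cells (45.4% of all genes) and 1 in UMRC2 FoxO3 cells (38.9%). With the values as deposited, 2 of the 8 were above 0 in RCC4 FoxO3 cells, where 14.8% of all genes were, and 1 in UMRC2 FoxO3 cells, where 52.5% were. STMN1, TUBB2A, TUBB3 and TUBB6 then had responses below 0 in FoxO3 cells of both lines. The FoxO1 counts moved too. In UMRC2 FoxO1 cells 2 of the 8 were above 0 with a common median (33.5% of all genes) and 2 as deposited (30%). In RCC4 FoxO1 cells 8 were above 0 with a common median (57.3%) and 7 as deposited (41.3%). A direct test of RCC4 against UMRC2 for the FoxO response beyond EV called 0 of the 8 (limma), and 0% of all genes, and 0 of the 8 had an unadjusted p under 0.05. This test took the FoxO1 and FoxO3 pairs of a line as replicates, so the difference between the isoforms counted as error. For TUBG1 its SE was 0.83, and 0 calls do not show that the lines respond alike. TUBB2B, near the floor in RCC4, is among the 8. TUBA1A came nearest, with RCC4 above UMRC2 by 1.90 ± 0.78 (unadjusted p = 0.0548, adjusted p = 1). No probe set read above 14.83. In FoxO3 cells with vehicle TUBA1A stood at 13.65 in UMRC2 and 11.52 in RCC4, which left less room to rise in UMRC2. The part of this limit was not tested.

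Over the 8 tested members other than TPPP, FoxO3 against EV called 1 higher and 1 lower, where 6.60% of all genes were called higher and 10.0% lower. The median of the 8 was -0.22, against -0.07 over all genes. For the mean of both FoxO proteins 1 was higher and 1 lower, beside 3.09% and 4.73% of all genes, with a median of -0.04 against -0.05. FoxO3 against FoxO1 called 0 higher and 2 lower, beside 2.16% and 3.65%, with a median of -0.50 against -0.06. FoxO1 against EV called 0 in either direction, beside 0.0840% higher and 0% lower, and TUBA1A was the 1 member with an unadjusted p under 0.05. With so few members, these counts say nothing of the group as a whole. All calls on responses, those of the lists and of the cell cycle markers included, depend on how the spread is estimated: with no filter on dim probe sets, a constant prior variance or a prior variance that follows the mean response, 0 genes of the whole table were called in any of these comparisons (limma). FoxO3 against EV called 942 higher and 1430 lower here, and under those 3 settings it had 4284, 3700 and 3799 genes at an unadjusted p under 0.05, in that order. The comparisons with EV share the EV arrays. In the comparisons between constructs a p-value measures how far a construct's effect differs between the 2 lines, array noise included, not the spread of repeat cultures.

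**Figure D3:**
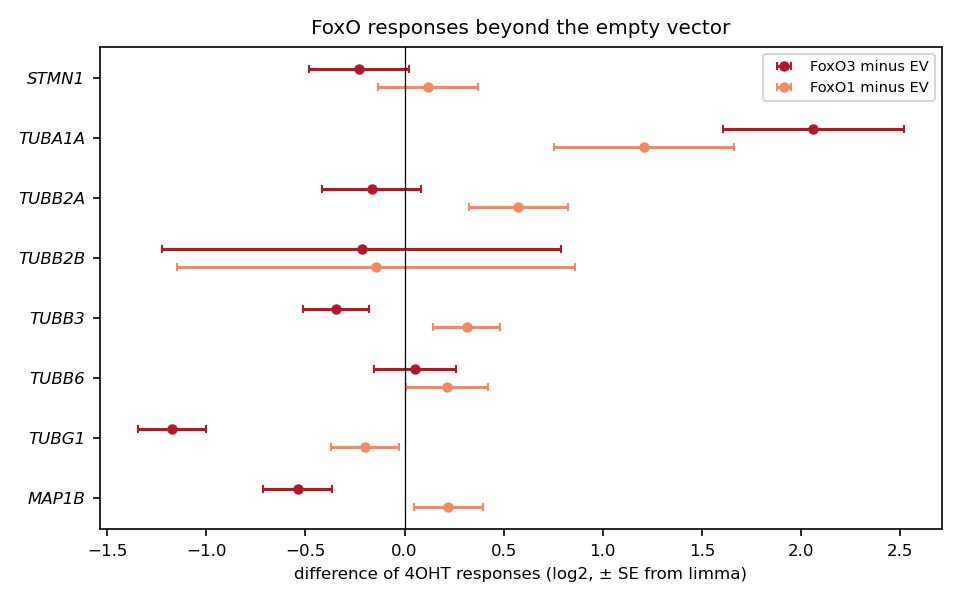
Response beyond EV (x axis, difference of 4OHT responses in log2, bars ± SE from limma, n = 2 cell lines a construct) of the 8 tested members other than TPPP (rows) for FoxO3 and FoxO1. TUBA1A is above 0 with both, at 2.06 with FoxO3 and 1.21 with FoxO1, while TUBG1 is at -1.17 with FoxO3 and -0.20 with FoxO1.

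In EV cells, which show what 4OHT does with no FoxO fusion, 0 of the 8 members were called (limma), like 0% of all genes, and 0 of the 8 had an unadjusted p under 0.05. Their mean EV responses lay between -0.04 for TUBA1A and 0.22 for TUBG1. TPPP, given without a test, was at -1.38 ± 0.39.

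Before 4OHT was given, the fusion lines and the EV lines did not differ past the threshold in any of the 8 tested members other than TPPP (limma, 0% of all genes called higher and 0% lower, unadjusted p under 0.05 in 2 of the 8). These were TUBG1, 0.27 ± 0.08 higher in fusion lines (adjusted p = 0.674), and TUBA1A, 0.23 ± 0.09 higher (adjusted p = 0.681). TPPP, given with no test since these arrays enter the response it was selected on, differed by 0.01 ± 0.27, and by -0.47 with its second brightest probe set.

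The 2 cell lines differed in these genes under vehicle, where the 3 constructs of a line serve as its replicates. Of the 7 tested members other than TPPP and TUBB2B, 1 was higher and 3 lower in RCC4 than in UMRC2, in a comparison that called 26.6% of all genes higher and 23.7% lower. With the values as deposited the split was 9182 genes higher and 1227 lower, against 3804 higher and 3379 lower here. TUBA1A averaged 11.16 ± 0.31 in RCC4 and 13.50 ± 0.16 in UMRC2 (SD, n = 3), a difference of -2.34 ± 0.08 (limma, adjusted p = 5.97e-06). TUBB2A averaged 11.80 ± 0.03 in RCC4 and 12.70 ± 0.03 in UMRC2 (adjusted p = 2.42e-05).

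TUBB6 averaged 13.16 ± 0.04 in RCC4 and 13.68 ± 0.01 in UMRC2 (adjusted p = 7.73e-05), but its sign turned with the values as deposited, where RCC4 was 0.45 higher, and the difference in TUBB2A shrank to -0.04. TUBB2B was at the floor in all 3 RCC4 vehicle arrays and averaged 6.88 ± 0.44 in UMRC2, and it is given with no test, since it passed the brightness filter through UMRC2 arrays alone. MAP1B averaged 12.39 ± 0.05 in RCC4 and 11.97 ± 0.10 in UMRC2 (adjusted p = 0.00116), and the difference of 0.42 was 1.27 with the values as deposited. TPPP averaged 6.41 ± 0.35 in RCC4 and 5.25 ± 0.33 in UMRC2, again with no test, and by its second probe set the sign turned, with a difference of -0.32.

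Other genes of the tubulin and microtubule system were read from 6 lists of 85 symbols, of which 71 were tested. With FoxO3 against EV 4 rose and 10 fell, a share of each direction to be read beside the 6.60% and 10.0% of all genes, and the median of the 71 was 0.04. For the mean of both FoxO proteins 2 rose and 3 fell, beside 3.09% and 4.73% of all genes. With FoxO1 alone 0 passed, beside 0.0840% higher and 0% lower. There 6 of the 71 had an unadjusted p under 0.05, beside 1430 of the 14283 genes tested (limma). Between the isoforms 1 was higher and 5 lower with FoxO3, beside 2.16% and 3.65% of all genes.

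Among 3 other alpha-tubulins tested, TUBA4A, an isotype abundant in platelets and muscle, fell with FoxO3 against EV (-1.49, limma, adjusted p = 0.00345). Its FoxO3 response was -1.84 in RCC4 and -1.06 in UMRC2. The alpha-tubulins TUBA1A and TUBA4A thus went opposite ways with FoxO3 in both lines. Of 3 other beta-tubulins, TUBB fell by 0.42 (adjusted p = 0.0133) and TUBB4B by 0.36 (adjusted p = 0.0377), and both were lower with FoxO3 than with FoxO1 (adjusted p = 0.0293 for TUBB and 0.0314 for TUBB4B).

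Of 11 genes of the gamma-tubulin ring and the centriolar tubulins, 4 fell with FoxO3 against EV and 0 rose, beside 10.0% and 6.60% of all genes. All 10 cell cycle markers fell in the same comparison, and their part in this result was not tested. TUBGCP5, TUBGCP3 and TUBGCP4 are subunits of the ring that holds gamma-tubulin. They changed by -2.08, -1.02 and -0.99 in that order (limma, adjusted p = 0.0172, 0.0423 and 0.0283). TUBE1, epsilon-tubulin of the centriole, fell by 1.26 (adjusted p = 0.0276). The single-line values beyond EV were -2.48 in RCC4 and -1.69 in UMRC2 for TUBGCP5, and -1.35 in RCC4 and -1.17 in UMRC2 for TUBE1. None of the 11 passed for the mean of both FoxO proteins (4 had an unadjusted p under 0.05).

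Among 25 microtubule-associated proteins, 3 rose and 1 fell with FoxO3 against EV, beside 6.60% and 10.0% of all genes. CLIP1, which tracks growing ends, rose by 1.09 (limma, adjusted p = 0.00657), MAP1LC3B, a light chain relative used in autophagy, by 1.07 (adjusted p = 0.00345), and MAP4 by 0.63 (adjusted p = 0.0383). TPX2, a spindle assembly factor of dividing cells, fell (-1.14, adjusted p = 0.0024). Of 27 genes for folding, modifying or severing tubulin, SPAST, the severing enzyme spastin, rose by 1.35 (adjusted p = 0.0266). TTLL12 of the tubulin ligase-like family fell (-1.51, adjusted p = 0.00586), and so did FIGNL1, a relative of the severing enzymes (-1.02, adjusted p = 0.0277). The stathmin relatives STMN3 and STMN4 did not pass, at -0.69 ± 0.28 (adjusted p = 0.146) and 0.15 ± 0.79 (adjusted p = 0.931).

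**Figure D4:**
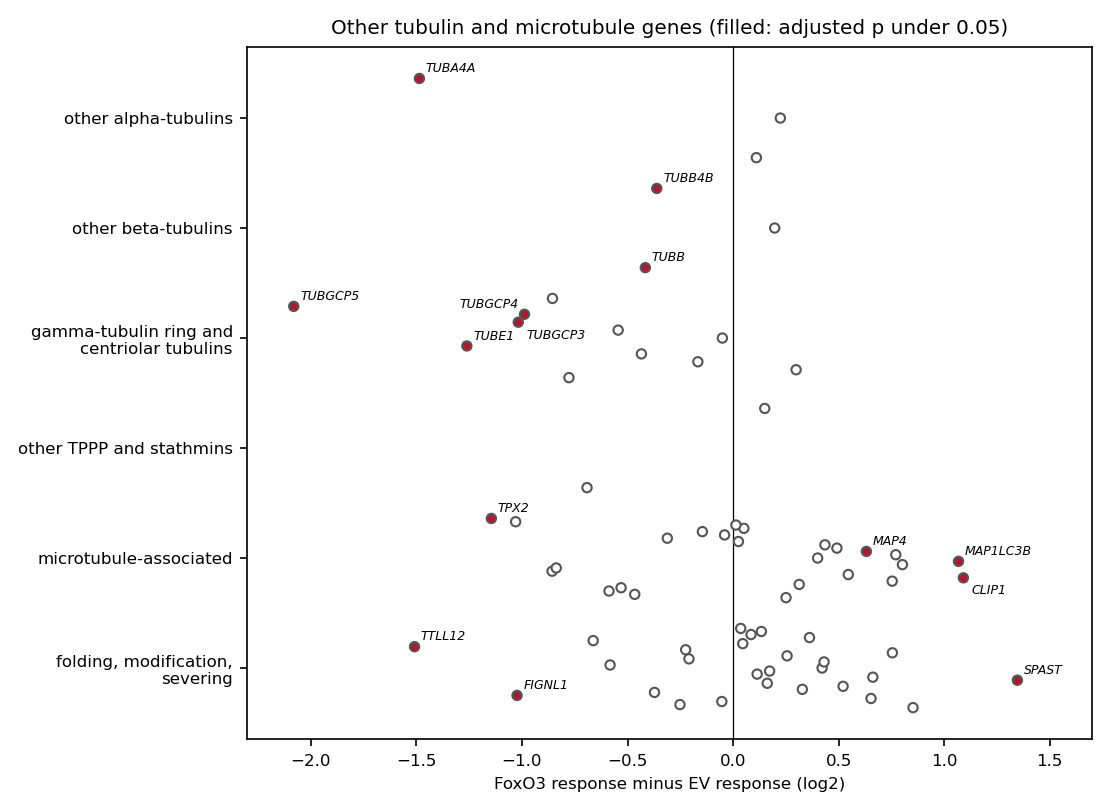
FoxO3 response minus EV response (x axis, log2) of 71 other tubulin and microtubule genes in 6 lists (rows, 1 gene a point), filled and named where the adjusted p from limma is under 0.05. The 4 filled genes of the gamma-tubulin row lie between -2.08 and -0.99, and the filled genes above 0 are MAP4, MAP1LC3B, CLIP1 and SPAST.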

How the data were processed

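Total RNA of 12 cultures was hybridised to Affymetrix U133 Plus 2.0 arrays. The authors deposited 1 linear intensity for each probe set, computed with MAS5 per the submitters' processing notes, with no version or scaling target given in the sources used here. The arrays were quantile-normalised on the log2 scale, raised to a floor at the 20th percentile (18.0) and put on the log2 scale. The number of arrays limits the precision. Of 54675 probe sets, 41091 had 1 symbol, 1801 several and 11721 none, and 62 were controls. A gene was tested where it reached the median of its array 2 times or more. For the 6 responses limma 3.58.1 in R 4.3.3 was given a term for construct and 1 for cell line, which leaves 2 residual degrees of freedom. Its prior variance was tied to a gene's mean log2 level (5.46 prior degrees of freedom). The test of RCC4 against UMRC2 on the FoxO response had no isoform term and took the FoxO1 and FoxO3 pairs of a line as replicates. The 6 vehicle arrays were fitted apart. All p-values are two-sided, adjusted by Benjamini-Hochberg over the 14283 genes tested, with 0.05 as the threshold. The steps were tested on simulated data.

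The members, lists and named genes (the members, up to 4 genes a list and comparison by size of change, and the 5 most like TPPP) were chosen with earlier results of these data known. In addition, 3 settings were settled after member calls had been seen, to follow the processing of an earlier analysis of these data: the form of the prior variance, the scale of the quantile normalisation and the scale on which probe sets were ranked. The first run, with the prior variance following the mean response and the other 2 on the linear scale, called 0 members in the comparisons of responses. Every call in those comparisons depends on the first of these settings, that of TUBA1A for the mean of both FoxO proteins on the other 2 as well, and that of MAP1B between the isoforms on the ranking as well. TPPP is given with no test throughout, and TUBB2B with none between the cell lines. For the vehicle arrays this was decided after their tests had been seen, and it took 1 higher (TPPP) and 1 lower (TUBB2B) call out of the counts between the lines.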

Additional observations from a re-analysis of the deposited data

Results flagged for a closer look

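The FoxO3 and FoxO1 responses, under the same contrast of 4OHT with vehicle, differed by their own test for 2 members. Over all genes tested, 3.65% were called lower and 2.16% higher with FoxO3. TUBG1 was lower with FoxO3 by log2 -0.97 (limma, adjusted p = 0.0252, the same sign in 2 of 2 lines). MAP1B was lower by -0.76 (adjusted p = 0.0492, the same sign in 2 of 2 lines). Both calls were lost with values as deposited, no filter on dim probe sets or a constant prior variance, and the first run made neither.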

How the results depend on the processing

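Calls among the response comparisons were fragile. No member was called there (0 higher, 0 lower) with values as deposited, no filter on dim probe sets, a constant prior variance or, as chosen after seeing the data, a prior variance that follows the mean response, the setting of the first run. All but the first of these 4 settings called 0 genes of the whole table in these comparisons (limma), and values as deposited called 126 higher and 457 lower for FoxO3 against EV. Higher calls for the mean of both FoxO proteins were 1 as reported and 0 also with the 10th percentile floor, averaged probe sets, the second brightest probe set, no line term, and each of the 3 linear-scale settings added after seeing the data (TUBA1A, adjusted p from 0.0504 to 0.0529). Lower calls there were 1 as reported and 0 also with a common median and averaged probe sets. TUBA1A and TUBG1 have 1 probe set each. Averaged and second brightest probe sets thus left their values at 1.64 and -0.69, and are no check on their probe sets. Over all genes, the settings with 0 higher calls beyond those 4 called 176 to 441 higher. A common median called 620 genes lower and averaged probe sets 270. For FoxO3 against EV, higher calls were 1 as reported and 0 also with averaged probe sets and no line term, and lower calls were 2 with the second brightest probe set. Over all genes, 595 were called higher with averaged probe sets and 835 with no line term. The second brightest probe set called 969 of 12153 lower. For FoxO3 against FoxO1, lower calls were 2 as reported, 0 also with averaged probe sets, and 1 with a common median, the 10th percentile floor, no line term or the probe set of highest linear mean. Over all genes, averaged probe sets called 119 lower, and the settings with 1 lower call 413 to 512. Over all settings MAP1B ran from adjusted p = 0.0206 to 0.83. RCC4 against UMRC2 under vehicle had 1 higher and 3 lower calls as reported, 5 and 1 with values as deposited, and 2 higher with a common median. Over all genes, 3804 of 14283 were higher and 3379 lower as reported. Values as deposited called 9182 of 14282 higher and 1227 lower, and a common median 4273 of 14281 higher. TUBB6 reversed to 0.45 with values as deposited and TPPP to -0.32 by its second probe set. The cause was not tested.

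Member calls on responses also moved when 1 pair was left out. Each such fit leaves a construct with 1 cell line, so its calls are not counted here. TPPP beyond EV then ran from 6.84 to 7.81 with FoxO3 and from 2.42 to 3.68 with FoxO1. It was lower in other settings, at 4.33 with FoxO3 for averaged probe sets and 1.01 with FoxO1 for the second brightest. By the dimmest TPPP probe set, FoxO1 beyond EV was -0.50 in RCC4 and 3.07 in UMRC2. Each response is a paired difference within a line and construct, and the fit without the line term is among the settings above. No further paired analysis was possible because each combination has 1 array and the labels number no replicates. A dim probe set limits TPPP3, TUBB2B in RCC4 and TPPP in EV cells.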
